A study of Mus musculus with 3 samples.

Results

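Epithelial cells of the mouth and the tooth were picked out of single-cell RNA libraries of mouse jaw, 87 barcodes of 20504 kept ones. A barcode was kept with at least 500 UMIs (unique molecular identifiers, each standing for 1 captured RNA molecule), at least 250 genes and at most 15% of UMIs from mitochondrial genes. Members were chosen by their own measured values: at least 10 UMIs summed over Krt5, Krt14, Krt15, Krt17, Epcam and Cdh1, at least 3 of these 6 genes detected, and at most 1 UMI of Ptprc, the leukocyte gene for CD45. The values of those 7 genes are therefore description only, and a contrast of the members with all other barcodes is no test.

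The libraries came from jaws of male wild-type mice of the C57BL/6 strain, aged 10 weeks, 24 in all, in 3 groups of 8. Ctrl mice had no treatment. The 1d and 7d mice received 10 Gy of irradiation to the head and neck and were killed 1 and 7 days later. The jaws of the 8 mice of a group were pooled into 1 library, so that each group is a single sample, and no difference between groups has a replicate check or a test. All 3 suspensions were made with collagenase II, frozen, thawed and run with the 10x 3′ v3.1 chemistry. Intervals given are 95% intervals for counting error only, and they take no account of differences between mice or digestions.

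Stratified epithelium renews from a basal layer that is anchored to the basement membrane by hemidesmosomes and expresses the keratin pair Krt5 and Krt14 under the transcription factor p63 (Trp63). Cells that leave the basal layer switch keratins, to Krt4 and Krt13 in lining mucosa such as the cheek, to Krt1 and Krt10 where the surface cornifies, and to Krt76 in the hard palate and gingiva. Krt6a, Krt6b, Krt16 and Krt17 are induced in activated or wounded epithelium and are present in some oral sites at rest. The tooth also holds epithelium. In the mouse incisor this epithelium produces enamel throughout life through ameloblasts, which secrete amelogenin (Amelx), ameloblastin (Ambn) and enamelin (Enam). Supporting layers lie around them. Basal cells divide often, and oral mucosa is among the tissues that react early to radiation.

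Ctrl held 54 members, 1d held 30 and 7d held 3. They were deep barcodes, with a median of 14494 UMIs in Ctrl (2004 to 52823), 12028 in 1d (1272 to 99779) and 9734 in 7d (8264 to 15013). The medians over all kept barcodes were 2463, 5196 and 3935. The members' UMIs summed to 881152, 558967 and 33011. Libraries shared 20, 24 and 12 barcode sequences in the pairs Ctrl with 1d, Ctrl with 7d and 1d with 7d, but no member barcode was shared. Around the threshold, the lowest members held 26, 17 and 21 UMIs of the 6 genes in Ctrl, 1d and 7d. The highest barcodes below it with 3 of the genes held 7 UMIs in Ctrl and 8 in 7d, and 1d had none. No barcode that met the other criteria lay between 8 and 17 UMIs, and the medians of members were 238, 172 and 111 UMIs. Scrublet scores barcodes for holding more than 1 cell, and the highest scores were marked up to a number set by the library's barcode count. That number was 804 of 8880 kept barcodes in Ctrl, 248 of 5127 in 1d and 403 of 6497 in 7d. Among members 25, 9 and 2 were marked, a larger share than over all kept barcodes in each library. Moreover, 6 Ctrl and 5 1d members carried at least 10 UMIs of collagen and matrix genes that mark mesenchymal cells.

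The markers that went into the choice were present in nearly every cell. Krt14 was detected in 54 of 54, 30 of 30 and 3 of 3 members, and Krt5 in 54, 29 and 3. Krt15, a keratin of quiescent basal cells, was found in 37, 19 and 1, Epcam in 37, 20 and 1, and Cdh1, encoding E-cadherin, in 41, 26 and 2. The gene for p63, which the choice did not use, had UMIs in 42 of 54 and 21 of 30 members. Among the 20 genes most enriched in members over other barcodes were those of desmosomes (Dsp, Dsc3, Dsg3, Dsc2, Pkp1), of hemidesmosomes (Col17a1, Itgb4) and of squamous epithelium (Lgals7, Krt6a, Krt24, Mt4, Lypd3, Serpinb5). Dsp stood at 1256 CPM (UMIs per 1000000 UMIs of the cells summed) in Ctrl and 1057 in 1d, against 4.39 and 0.675 in other barcodes. Col17a1 stood at 946 CPM in 1d members, against 0.14 in other 1d barcodes. Krt76, which the choice did not use either, was found in 26 of 54 and 13 of 30 members. The oral part of the label thus rests, as description, on genes of stratified epithelium and on Krt76, which only some members held. The dental part rests on tooth genes of single cells, given below.

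Members had a like share 1 day after irradiation and in untreated mice and were scarce at 7 days. They made up 0.608% of kept barcodes in Ctrl (Clopper-Pearson interval 0.457 to 0.793), 0.585% in 1d (0.395 to 0.834) and 0.0462% in 7d (0.00952 to 0.135). The ratio to Ctrl was 0.962 (0.594 to 1.53) in 1d and 0.0759 (0.0152 to 0.234) in 7d, so that the 7d share lay below the Ctrl share by more than counting error. Other non-blood cells were also fewer: mesenchymal barcodes made up 7.11%, 4.13% and 1.60%, and endothelial ones 0.518%, 0.176% and 0.323%. Among epithelial, mesenchymal and endothelial barcodes together, members were 54 of 729 in Ctrl, 30 of 251 in 1d and 3 of 128 in 7d. On that scale the ratio to Ctrl was 1.61 (0.997 to 2.57) in 1d and 0.316 (0.0633 to 0.975) in 7d. Whether fewer cells were in the jaw or fewer survived digestion, freezing and capture cannot be told apart from these counts.

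**Figure D1:**
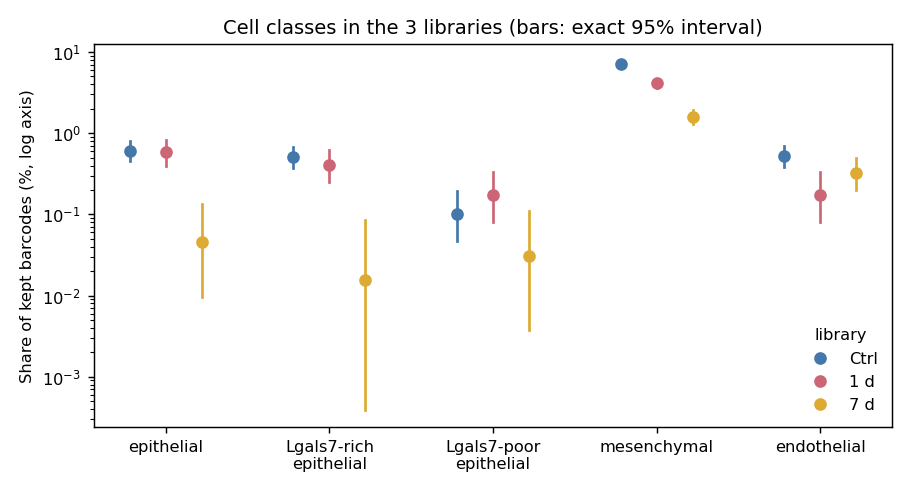
Shares of epithelial (all, Lgals7-rich and Lgals7-poor), mesenchymal and endothelial barcodes among kept barcodes of the 3 libraries (percent, log axis), with 95% Clopper-Pearson intervals for counting error. The epithelial share is alike in Ctrl (0.608%) and 1d (0.585%) and is 0.0462%, or 3 cells, in 7d.

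The members fell into a squamous majority and a varied minority. Lgals7, encoding galectin-7 of stratified epithelium, split them with a gap: no cell lay between 4.27 and 9.10 Lgals7 UMIs per 10000, and a line at 5 was drawn in it after these values were seen. Lgals7-rich cells numbered 45 in Ctrl, 21 in 1d and 1 in 7d, and Lgals7-poor cells 9, 9 and 2. Lgals7-poor cells were thus 9 of 54 Ctrl members and 9 of 30 1d members.

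**Figure D2:**
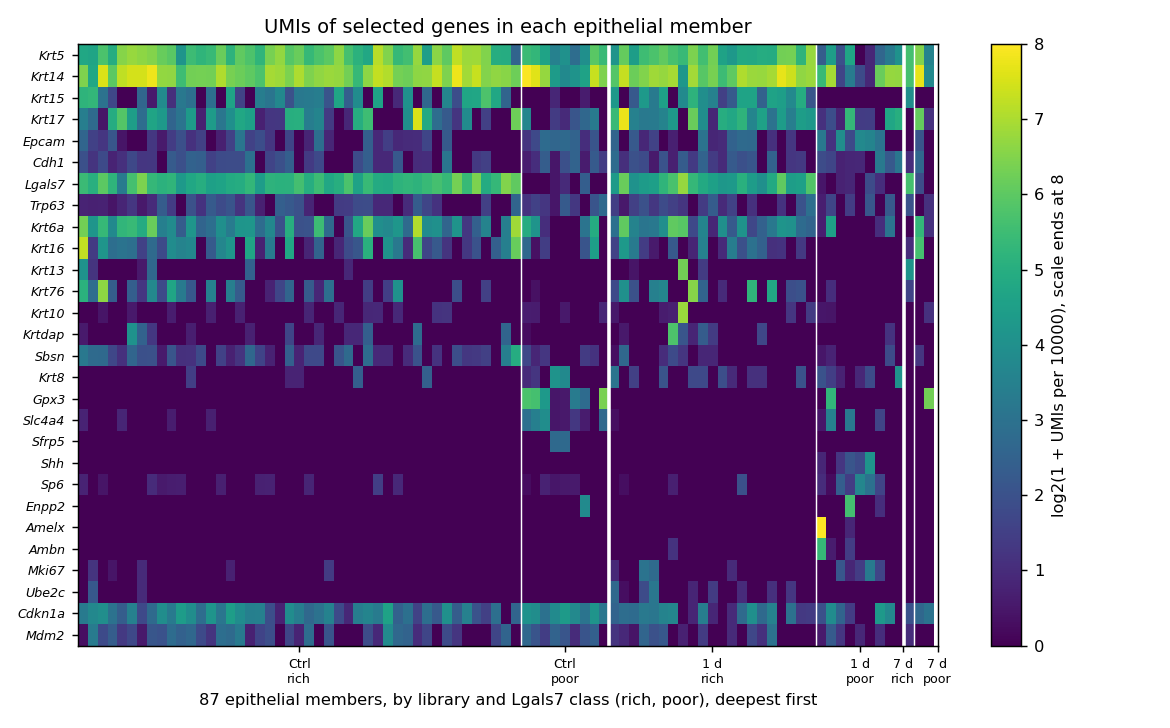
Marker genes (rows) in each of the 87 members (columns, grouped by library and by Lgals7-rich or Lgals7-poor), coloured by log2(1 + UMIs per 10000 of the cell), a scale that ends at 8. Krt5 and Krt14 run across nearly all columns, and Gpx3, Sfrp5, Shh, Enpp2 and Amelx are seen in Lgals7-poor columns.

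Several Lgals7-poor cells carried genes of the tooth's epithelial layers. The deepest member of all, a 1d cell with 99779 UMIs, held 28509 UMIs of Amelx, 28.6% of its UMIs. It also held 1526 UMIs of Clu, 404 of Ambn, 149 of Enam, 40 of Mmp20, the enamel matrix protease, and 206 of Calb1, a calcium-binding protein of ameloblasts. Only 0.00401% of its UMIs were mitochondrial. No UMI of Amelx, Ambn, Enam or Mmp20 was detected in the 54 Ctrl members, and the Clopper-Pearson upper limit for the share of members with such a UMI was 6.60%. That absence holds for members only. Summed over these genes and Klk4, leukocytes held 36 UMIs in 19 of 4099 Ctrl barcodes and 97 in 60 of 2652 1d barcodes. The Amelx-rich cell alone held 17.9% of the UMIs of the 1d members, which is why results are also given for the Lgals7-rich cells.

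A second kind shared Gpx3, encoding a secreted glutathione peroxidase, and Slc4a4, a bicarbonate transporter. Ctrl cells of 52823, 36989 and 28703 UMIs held 273, 180 and 55 UMIs of Gpx3 and 36, 37 and 41 of Slc4a4, and a further Ctrl cell of 12503 UMIs held 104 of Gpx3. In 1d, a cell of 55456 UMIs held 206 of Gpx3 and 58 of Slc4a4. Cells with both genes at these levels were thus found in Ctrl and 1d. In 7d, a cell of 8264 UMIs held 64 of Gpx3 and 31 of Calb1 but none of Slc4a4.

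Other Lgals7-poor cells carried further genes of tooth epithelium. Ctrl cells of 24871 and 21064 UMIs held 14 and 12 UMIs of Sfrp5, a secreted Wnt inhibitor found in dental epithelium, and both also carried mesenchymal genes. Sfrp5 had 26 UMIs over the Ctrl members and 0 over the 1d members. In 1d, cells of 11587 and 11986 UMIs held early tooth genes: 19 UMIs of Shh and 10 of Vwde in the first, and 14 of Sp6, 15 of Dlx2 and 10 of Msx2 in the second. A further 1d cell, of 14122 UMIs, held 6 of Sp6 and 13 of Sox11. Sox11, a transcription factor, was not limited to 1d: the 2 Ctrl cells with Sfrp5 held 19 and 16 UMIs of it. Shh, a hedgehog ligand of tooth epithelium, had 36 UMIs in 5 of the 1d members and 0 in Ctrl. The 1d level was at least 18.9-fold higher than the floor of 3 UMIs in Ctrl. A 1d cell of 12069 UMIs held 58 of Enpp2 and 24 of Alpl, the alkaline phosphatase gene. That 1d cell also carried leukocyte genes, with 40 UMIs of Cd74 and 8 of the B cell marker Cd79a. A Ctrl cell of 18720 UMIs held 25 of Enpp2. The Ctrl cell of 20847 UMIs held 105 of Hmox1, 20 of Slc26a7 and 19 of Gpx3, and that of 18720 UMIs also held 38 of Vim and 19 of Lum, mesenchymal genes. The Ctrl cell of 15737 UMIs and the 1d cells of 9518, 8128 and 1272 UMIs were without UMIs of Gpx3, Sfrp5, Shh and Amelx. In 7d, the cell with 15013 UMIs held 106 of Wfdc2 and 102 of Krt17, and the remaining cell of 9734 UMIs was Lgals7-rich with 16 UMIs of Krt13.

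For genes, 1d was compared with Ctrl, because 3 cells in 7d carry no comparison. UMIs were summed over the members of each library, and genes with at least 20 UMIs over both were described, 6866 in all. At least 2-fold higher in 1d were 368 genes (5.36%), and at least 2-fold lower were 408 (5.94%). The median log2 ratio over all described genes was -0.05. In the Lgals7-rich cells 5359 genes were described, of which 310 (5.78%) were at least 2-fold higher and 289 (5.39%) at least 2-fold lower, with a median of 0.04. Counts in the gene lists are to be read against these percentages. Directions follow the labels: ionizing radiation is known to induce p53 targets within a day, yet those genes were lower in the library labelled 1d than in the library labelled Ctrl, in the members and in the other cells alike, with the values further on.

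In the basal group, few genes were 2-fold apart, and single anchoring genes lay on both sides of a ratio of 1. Of 18 genes of basal keratinocytes and hemidesmosomes 17 were described, with 1 at least 2-fold higher and 1 at least 2-fold lower and a median log2 ratio of 0.22. Col17a1, the hemidesmosomal collagen XVII, had 859 and 529 UMIs in Ctrl and 1d, and the ratio of CPM, 1d over Ctrl, was 0.97 (0.87 to 1.08). Dst, which links hemidesmosomes to keratin, had 322 and 299, a ratio of 1.46 (1.25 to 1.72). Itgb4, the beta4 integrin, had 376 and 140, a ratio of 0.59 (0.48 to 0.72), and 0.83 in Lgals7-rich cells. Lama3, a chain of laminin-332, had 69 and 106, a ratio of 2.42 (1.77 to 3.33), which was 1.61 in Lgals7-rich cells. Ccnd2, the G1 cyclin D2, had 421 and 92, a ratio of 0.34 (0.27 to 0.43). Its ratio was 0.43 in Lgals7-rich cells and 0.61 with every cell weighted equally.

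The choice genes themselves varied in different directions. Krt5 had 4639 UMIs in Ctrl, 1746 in 1d and 191 in 7d, with medians of 50.2, 28.5 and 49.3 per 10000 UMIs of a cell. Krt14 had 9768, 4585 and 372, with medians of 99.2, 102 and 49.3. Krt15 had 682, 418 and 14, Epcam 187, 215 and 5, and Cdh1 178, 140 and 9. The ranges of single cells overlapped between Ctrl and 1d for all of them, as for Krt5 with 4.99 to 150 per 10000 in Ctrl and 0 to 109 in 1d.

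Levels of differentiation and stress keratins were set by a few cells, and most ratios of the pooled sums turned on 1 of them. Krt17 had 1199 and 1667 UMIs and a ratio of 2.19, but 963 of the 1d UMIs came from a cell of 44888 UMIs, and without it the ratio was 1.01 (0.92 to 1.11). Leaving out the richest Ctrl cell as well, it was 1.18 (1.07 to 1.30). Krt16 had 1183 and 168, a ratio of 0.22 (0.19 to 0.26), and without a Ctrl cell of 41185 UMIs that held 625 of them it was 0.45 (0.38 to 0.54). Without the 1d cell of 44888 UMIs as well, which held 84 of the 168, it was 0.25 (0.19 to 0.31). The same Ctrl cell held 190 of the 259 Ctrl UMIs of Krt6b, which had 9 in 1d: the ratio was 0.055 with it and 0.20 (0.09 to 0.39) without it. Krt6a, at 1907 and 843 UMIs, had a ratio of 0.70 (0.64 to 0.76), of 0.80 without that cell and of 0.57 without the richest cell of each library. Krt16 and Krt6b thus stayed below 1 in each of these counts, Krt6b at 0.12 (0.04 to 0.30) without the richest cell of each library, while the ratio of Krt17 lay between 1.01 and 2.19. These keratins are close in sequence, so that reads could be split or lost between copies.

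Krt4, Krt13 and Krt1 came largely from single cells in both libraries, and Krt10 in 1d alone. In 1d a cell of 15039 UMIs was the main source. It held 166 of the 178 UMIs of Krt10, 116 of the 119 of Krt13, 39 of the 42 of Krt1 and all 36 of Krt4. With it the ratios to Ctrl were 14.8, 2.08, 2.01 and 1.77. Without it they were 1.02, 0.054, 0.15 and, with no UMI of Krt4 left in 1d against 32 in Ctrl, 0 with an upper bound of 0.20. The Ctrl sums of Krt4, Krt13 and Krt1 rested on few cells too. The cell of 41185 UMIs held 26 of the 32 UMIs of Krt4 and 66 of the 90 of Krt13. The cell of 21049 UMIs held 32 of the 33 of Krt1, while the Ctrl cell richest in Krt10 held 3 UMIs of it. Without the richest cell of each library, 6 and 0 UMIs of Krt4, 24 and 3 of Krt13, 1 and 3 of Krt1 and 16 and 12 of Krt10 were left in Ctrl and 1d. The ratio was then 0.19 (0.04 to 0.64) for Krt13 and 1.14 (0.49 to 2.57) for Krt10, and the intervals for Krt4 (0 to 1.31) and Krt1 (0.38 to 249) held 1, so no order of the libraries is read for the latter 2. Krtdap, a gene of differentiating keratinocytes, had a ratio of 2.36 with and 0.42 without a 1d cell of 16140 UMIs, and of 0.79 (0.42 to 1.43) without the richest Ctrl cell as well. Krt76 had 640 and 321 UMIs and a ratio of 0.79, which was 1.35 without a Ctrl cell of 28200 UMIs and 0.87 without the richest cell of each library. Krt24 had a ratio of 1.04, which was 0.41 without the 1d cell rich in Krt17 and 0.56 without the richest Ctrl cell as well. Krt80, a keratin of many epithelia, had 12 and 65 UMIs and a ratio of 8.54 (4.57 to 17.4) that was 7.20 without the Amelx-rich cell.

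**Figure D3:**
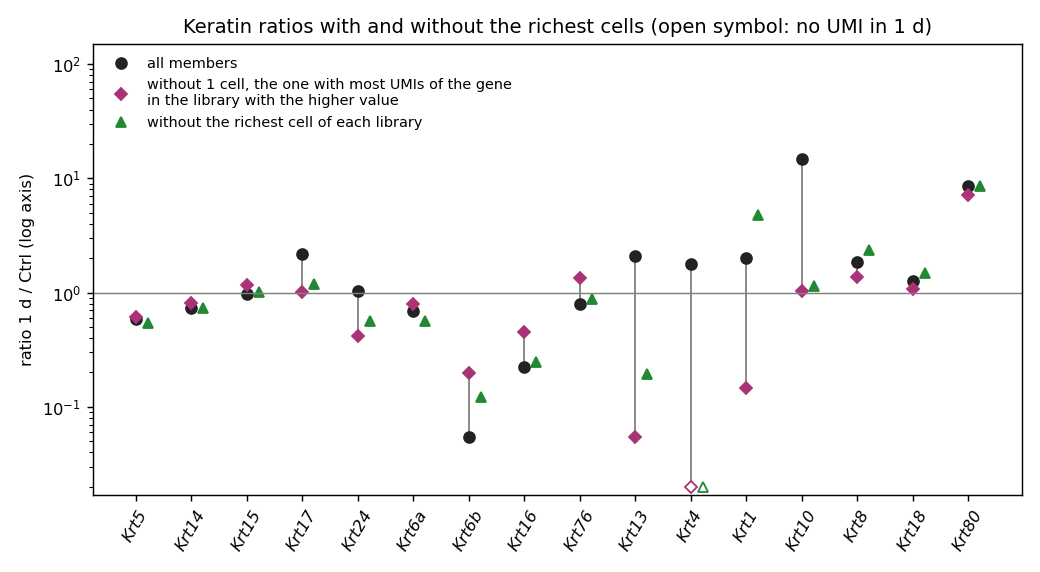
Ratio of CPM, 1d over Ctrl (log axis), for keratins in the members. Black circles are all cells, diamonds leave out the cell that held most UMIs of the gene in the library with the higher value, triangles leave out the richest cell of each library, and open symbols have no UMI left in 1d. Krt10 moves from 14.8 to 1.02 and Krt17 from 2.19 to 1.01 when the richest 1d cell is left out, whereas Krt16 and Krt6b stay below 1.

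Counting cells in place of UMIs gave shares whose order depended on the cut used. At least 3 UMIs of lining or cornified genes (Krt4, Krt13, Krt1, Krt10, Krt76, Krt78, Krtdap, Sbsn) were found in 37 of 54 Ctrl members (68.5%, 54.4 to 80.5) and in 16 of 30 1d members (53.3%, 34.3 to 71.7). In leukocytes, which should lack these genes, the share was 0% of 4099 in Ctrl and 0.151% of 2652 in 1d, at median depths of 3199 and 7234 UMIs. With each member thinned to 2000 UMIs the shares were 11 of 54 and 6 of 29. Without thinning, at least 1 UMI of these genes was found in 50 of 54 (92.6%, 82.1 to 97.9) and 20 of 30 (66.7%, 47.2 to 82.7). At least 10 UMIs were found in 17 of 54 and 12 of 30. At least 3 UMIs of Krt6a, Krt6b and Krt16 were found in 47 of 54 and 23 of 30. After thinning these were 33 of 54 (61.1%, 46.9 to 74.1) and 12 of 29 (41.4%, 23.5 to 61.1). At least 3 UMIs of the simple-epithelium keratins Krt7, Krt8, Krt18 and Krt19 were found in 11 of 54 (20.4%) and 14 of 30 (46.7%), but in 3 of 54 and 1 of 29 after thinning, so no order of the libraries is read from them.

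Of 38 suprabasal and cornified genes 16 were described, 3 at least 2-fold higher and 4 at least 2-fold lower, with a median of -0.34, and of -0.06 in Lgals7-rich cells. Sbsn, a gene of the upper layers, had 208 UMIs in 42 of 54 Ctrl cells and 45 in 10 of 30 1d cells. Its ratio was 0.34 (0.24 to 0.47), and 0.20 with every cell weighted equally. Lypd3, a surface protein of suprabasal keratinocytes, had 377 and 106 UMIs, a ratio of 0.44 (0.35 to 0.55). Sprr1a, an envelope precursor, had 62 and 7, a ratio of 0.18 (0.07 to 0.39). Of 11 genes of junctional epithelium, the collar that seals gum to tooth, 6 were described, none at least 2-fold higher and 3 lower. Among them Odam, a protein of the enamel surface and the junctional epithelium, had 56 and 11 UMIs. A Ctrl cell of 26373 UMIs held 47 of the 56, and the 1d cell of 55456 UMIs held 10 of the 11. Without the first cell the ratio turned from 0.31 to 1.87 (0.70 to 5.10), and without both 9 and 1 UMIs were left, a ratio of 0.19 (0.004 to 1.36). The same Ctrl cell, which was Lgals7-rich, held 27 of the 28 Ctrl UMIs of the chemokine Cxcl5, 71 of the 91 of Cdo1 and 24 of the 38 of Slc7a11.

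Genes that respond to p53 were lower in 1d. Of 44 targets 32 were described, of which 9 were at least 2-fold lower and 1 higher, with a median log2 ratio of -0.72 against -0.05 over all genes. In Lgals7-rich cells 8 of 26 were at least 2-fold lower and 1 higher, with a median of -0.75 against 0.04. Cdkn1a, the inhibitor p21 that stops the cycle, had 906 UMIs in Ctrl, 339 in 1d and 17 in 7d. It was detected in 53 of 54, 24 of 30 and 3 of 3 members, at medians of 8.83 (0 to 23.5), 5.34 (0 to 18.9) and 5.33 (3.08 to 7.26) per 10000. The ranges overlapped fully. The ratio of 1d to Ctrl was 0.59 (0.52 to 0.67), and 0.64 in Lgals7-rich cells.

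Mdm2, which marks p53 for breakdown and is itself a target, had 278, 80 and 1 UMIs and was found in 43 of 54 Ctrl and 17 of 30 1d members, a ratio of 0.45 (0.35 to 0.58). Ccng1, cyclin G1, had 68, 17 and 3, a ratio of 0.39 (0.22 to 0.68). With cells thinned to 2000 UMIs its ratio turned to 1.60, on few UMIs. Bax, a pore-forming death effector, had 102, 24 and 6, a ratio of 0.37 (0.23 to 0.58). Dcxr, a carbonyl reductase of the list, had 57 and 6, a ratio of 0.17 (0.06 to 0.38). Against these, Sesn1, a sestrin that restrains growth signalling, had 11 and 19, a ratio of 2.72 (1.23 to 6.33). Perp, a p63 and p53 target of desmosomes, had 1121 and 811, a ratio of 1.14 (1.04 to 1.25), and Sfn, encoding 14-3-3 sigma, 3368 and 2273, a ratio of 1.06. The last lay on the other side of 1, at 0.93 and 0.95, with cells weighted equally or thinned.

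The median for these targets was negative in the other cells of the same libraries too. It was -0.78 in mesenchymal barcodes, -2.03 in endothelial ones (from 9 cells in 1d) and -0.89 in leukocytes. Medians over all described genes of these other cells are not given, here or further on. Whether all genes of those cells were shifted is therefore not shown. The ratio of Cdkn1a was 0.44, 0.28 and 0.43 in these cells. No difference between cell types was tested.

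**Figure D4:**
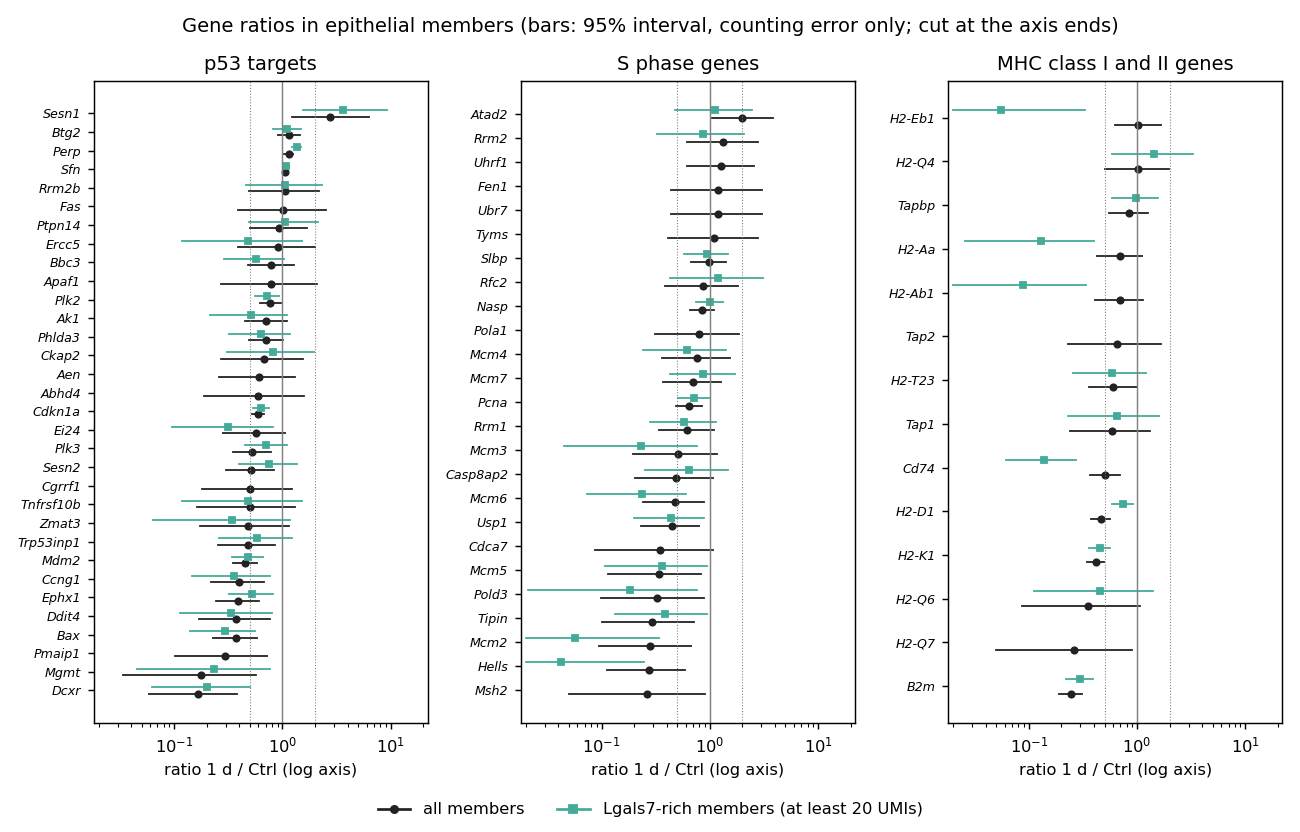
Ratio of CPM, 1d over Ctrl (log axis), for the described genes of the p53, S phase and MHC lists, in all members and in Lgals7-rich members, with 95% intervals for counting error that end at the axis limits; dotted lines mark 2-fold. The p53 targets lie mostly below 1, with Cdkn1a at 0.59, Mdm2 at 0.45 and Sesn1 at 2.72 in all members.

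Genes of DNA replication and of mitosis went opposite ways. Of 43 S phase genes 25 were described, none at least 2-fold higher and 9 lower, with a median of -0.63, and -0.69 in Lgals7-rich cells (0 and 8 of 18). Hells, a chromatin remodeller of S phase, had 46 and 8 UMIs, with a ratio of 0.27 (0.11 to 0.59), and in Lgals7-rich cells 46 and 1. Mcm2, a subunit of the replicative helicase, had 34 and 6, and in Lgals7-rich cells 34 and 1. Lig1, which joins Okazaki fragments, had 33 and 4, a ratio of 0.19 (0.05 to 0.54). In other cells the S phase median was 0.12 (mesenchymal) and 1.30 (leukocytes).

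Summed over Mcm2 to Mcm7 and Hells, a set put together after these values were seen, members held 244 UMIs in Ctrl, 72 in 1d and 0 in 7d. At least 10 such UMIs were found in 8 of 54 Ctrl members (14.8%, 6.62 to 27.1) and in 1 of 30 1d members (3.33%, 0.0844 to 17.2), intervals that overlap. Among Lgals7-rich cells these were 8 of 45 and 0 of 21. The 1d cell was Lgals7-poor, with 25 UMIs among 14122.

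Of 52 genes of G2 and mitosis 29 were described, 17 at least 2-fold higher in 1d and none lower, with a median of 1.13. Mki67, encoding the Ki-67 antigen, had 10 and 54 UMIs, a ratio of 8.51 (2.79 with cells thinned). Top2a, topoisomerase II alpha, had 11 and 50, a ratio of 7.17 (3.68 to 15.3), or 4.64 without the 1d cell richest in it. Ube2c, an enzyme of mitotic exit, had 13 and 54, a ratio of 6.55 (3.53 to 13.1), or 3.83 without the 1d cell richest in it and 24.0 without the richest Ctrl cell as well, which left 2 and 29 UMIs. Few cells carried this RNA: at least 3 UMIs of 6 cycling genes (Mki67, Top2a, Cdk1, Ccnb1, Ube2c, Birc5) were found in 3 of 54 Ctrl members (5.56%) and 5 of 30 1d members (16.7%), and those 5 held 173 of the 189 cycling UMIs of 1d. The 3 richest 1d cells, of 45819, 23633 and 20472 UMIs, held 51, 49 and 46 of them with 6, 8 and 2 UMIs of the MCM and Hells set. Of the 3 Ctrl cells, those of 21049 and 12278 UMIs held 8 and 9 cycling UMIs with 24 and 22 of the MCM and Hells set, and that of 30750 UMIs held 27 with 2.

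Most of the cycling UMIs of 1d were in such cells. Without members that passed the cycling count, the median of the mitotic list in Lgals7-rich cells went from 1.17 to -0.56. Those members were picked by genes of mitosis, so a lower median was largely set by that choice and is description only. The median of the mitotic list was -0.10 without members rich in RNA of other cell types, and 0.65 without the deepest member of each library. Over all members thinned to 2000 UMIs it was 0.049, from 5 genes. The S phase median in Lgals7-rich cells was -1.18 without the cycling cells and -1.09 without members rich in RNA of other cells. In leukocytes the median of the mitotic list was 1.39.

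**Figure D5:**
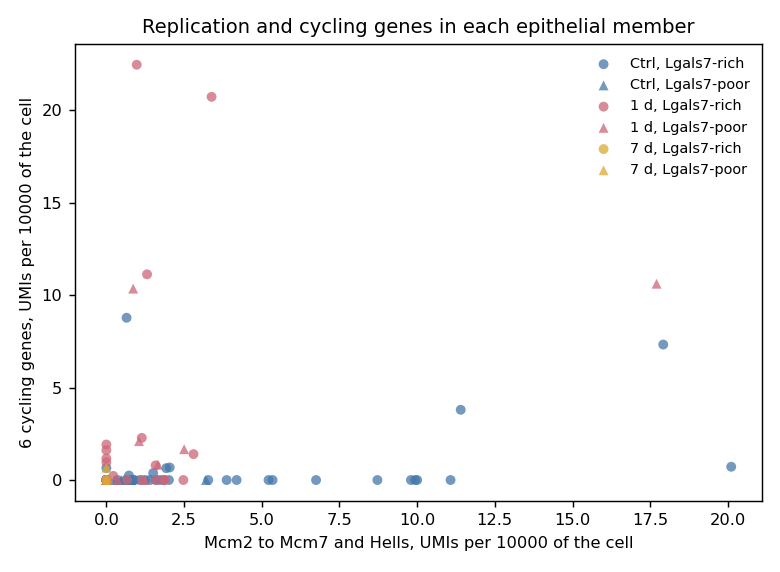
UMIs per 10000 of the MCM and Hells set (x axis) and of 6 cycling genes (y axis) in each member, by library and by Lgals7-rich (circles) or Lgals7-poor (triangles). The 8 Ctrl cells with at least 10 UMIs of the MCM and Hells set lie to the right, and the 1d cells rich in cycling genes lie high and to the left, except 1 Lgals7-poor cell.

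Antigen presentation genes were lower in 1d. Of 19 MHC class I and II genes 14 were described, none at least 2-fold higher and 5 lower, with a median of -0.71, and of -1.07 in Lgals7-rich cells (0 and 7 of 12). B2m, the light chain of class I, had 505 UMIs in 49 of 54 Ctrl cells, 78 in 19 of 30 1d cells and 6 in 2 of 3 7d cells. The medians were 4.56 (0 to 19.1), 0.993 (0 to 8.24) and 0.666 (0 to 5.14) per 10000, and the ranges overlapped. The ratio of 1d to Ctrl was 0.24 (0.19 to 0.31), 0.30 in Lgals7-rich cells, 0.40 without the members marked as doublets and 0.16 with cells thinned. H2-K1, a class I heavy chain, had 574, 151 and 14 UMIs, a ratio of 0.41 (0.34 to 0.50), and was found in every Ctrl member but in 22 of 30 1d members. H2-D1, the other classical heavy chain, had 434 and 128, a ratio of 0.46 (0.38 to 0.57), and 0.74 in Lgals7-rich cells.

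The median of the MHC list was -0.38 without the deepest member of each library, -0.47 without doublets and -0.27 where the rule was applied to barcodes thinned to 2000 UMIs. Class II genes and their chaperone Cd74 came from few cells: Cd74 had 161 and 52 UMIs, a ratio of 0.51, but 0.87 without a Ctrl cell of 14719 UMIs that held 68. Without the 1d cell of 12069 UMIs as well, which held 40 of the 52, it was 0.20 (0.10 to 0.37). In Lgals7-rich cells Cd74 had 126 and 9 UMIs, a ratio of 0.14, and 0.29 without that cell. Langerhans cells, the antigen-presenting cells of epithelium, express class II. The list of their markers took up at most 0.722% of the RNA of a Ctrl member. That list holds Cd74 and H2-Aa themselves and the choice gene Epcam, so its share cannot measure Langerhans cells apart from these genes. The part of Langerhans cells, or of B cell RNA as in the 1d cell of 12069 UMIs, in the class II values was not tested. The MHC median was -0.29 in mesenchymal barcodes and -0.95 in leukocytes.

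Several inflammatory genes were lower in 1d. Of 35 epithelial cytokines and chemokines 14 were described, 6 at least 2-fold lower and 2 higher, with a median of -0.10, which ran from -1.27 without members of mixed lineage to 0.41 in Lgals7-rich cells. Cxcl2 and Cxcl1, neutrophil attractants, had 91 and 4 UMIs (ratio 0.07, 0.02 to 0.18) and 157 and 29 (ratio 0.29, 0.19 to 0.43). Cxcl5, of the same family, had 28 in Ctrl, 27 of them in the cell of 26373 UMIs named above, 0 in 1d and 14 in 7d. Cxcl14, a chemokine made by resting epithelium, had 78 and 101, a ratio of 2.04, but 77 of the 101 came from the 1d cell of 16140 UMIs, which also carried mesenchymal genes, and without it the ratio was 0.50 (0.30 to 0.80), or 0.69 (0.41 to 1.13) without the richest Ctrl cell as well. Of 23 genes of the NF-kB response 17 were described, 3 at least 2-fold lower and none higher, with a median of -0.39. Ptgs2, cyclooxygenase 2, had 99 and 6 UMIs and a ratio of 0.10 (0.03 to 0.22), or 0.16 without the Ctrl cell that held 39 and 0.053 without the richest 1d cell as well. Tnfaip3, a feedback inhibitor, had 86 and 15 and a ratio of 0.27 (0.15 to 0.48). The interferon list, 13 of 49 described, had none higher and 3 lower and a median of -0.60, which was -0.22 in Lgals7-rich cells. Ifitm3, a membrane protein that restricts viral entry, had 677 and 227 UMIs and a ratio of 0.53, but 0.86 in Lgals7-rich cells.

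Taurine genes were looked at because the series concerns taurine. Slc6a6, the taurine transporter, had 195 UMIs in 45 of 54 Ctrl cells, 169 in 25 of 30 1d cells and 7 in 2 of 3 7d cells. The medians were 1.60 (0 to 10.8), 2.84 (0 to 17.1) and 1.33 (0 to 5.14) per 10000, and the ranges overlapped. The ratio of 1d to Ctrl was 1.37 (1.11 to 1.69) and 2.09 without doublets. A Lgals7-rich 1d cell of 20472 UMIs held 35 of the 169. Without the richest cell of each library the ratio was 1.17 (0.93 to 1.47), an interval that holds 1. In Lgals7-rich cells Slc6a6 stood at 219 and 439 CPM, with an interval of the ratio of 1.58 to 2.54, while the ratio was 0.80 in mesenchymal barcodes. Cdo1, the first enzyme of taurine synthesis from cysteine, had 91 and 10 UMIs, a ratio of 0.17, but 71 of the Ctrl UMIs came from a cell of 26373 UMIs, and without it the ratio was 0.76 (0.32 to 1.71), or 0.55 (0.20 to 1.36) without the richest 1d cell as well. Csad, the decarboxylase of that path, had 25 and 17, a ratio of 1.07 (0.54 to 2.07).

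Oxidative stress genes leaned lower, and protein stress genes stood near 1. All 35 genes of the NRF2 and oxidative stress list were described, 6 at least 2-fold lower and none higher, with a median of -0.27. Gsta4 and Gstm1, glutathione transferases, had 449 and 122 UMIs (ratio 0.43, 0.35 to 0.52) and 157 and 35 (ratio 0.35, 0.24 to 0.51). Slc7a11, the cystine importer, had 38 and 3 in Ctrl and 1d and 14 in 7d, with a ratio of 0.12 that was 0.33 (0.06 to 1.17) without the Ctrl cell of 26373 UMIs and 0.11 (0.003 to 0.73) without the richest 1d cell as well. None of 18 heat shock genes was at least 2-fold apart, and 1 of 27 immediate early genes, which also rise during digestion of tissue, was. Fos had 883 and 673 UMIs, a ratio of 1.20 (1.09 to 1.33), and Hspa1a 1280 and 702, a ratio of 0.86 (0.79 to 0.95); Hspa1a and Hspa1b are near-identical copies.

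Signalling genes included Notch1, the receptor that drives exit from the basal layer, with 382 UMIs in 50 of 54 Ctrl cells and 120 in 25 of 30 1d cells, a ratio of 0.50 (0.40 to 0.61) and of 0.51 in Lgals7-rich cells. Bmp4, with 22 and 62, and the hedgehog receptor Ptch1, with 17 and 33, had ratios of 4.44 and 3.06. These were 1.4 and 2.03 without the Amelx-rich cell, which held 46 and 15 of the UMIs, and 1.37 and 1.21 in Lgals7-rich cells. Of 12 described genes of the EGF receptor axis 1 was at least 2-fold higher and none lower, with a median of 0.30. Its ligand gene Hbegf had 726 and 337 UMIs, a ratio of 0.73 in all members and 1.13 in Lgals7-rich cells. Of 18 described DNA repair genes 4 were at least 2-fold lower and 1 higher, with a median of -0.02. Rad50, of the complex that senses double-strand breaks, had 26 and 2 UMIs, a ratio of 0.12 (0.01 to 0.48).

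Genes named for the size of the difference alone, and spread over several cells, were the following. Cyp2f2, a cytochrome P450 abundant in airway epithelium, had 10 UMIs in 3 of 54 Ctrl cells and 61 in 11 of 30 1d cells, all Lgals7-rich, a ratio of 9.62 (4.89 to 21.1) that was 24.2 with cells thinned. Frem2, and its partner Fras1 from the matrix list, encode basement membrane proteins and had 8 and 34 and 4 and 26 UMIs, ratios of 6.70 (3.04 to 16.8) and 10.3 (3.55 to 40.4), and in Lgals7-rich cells 2 and 15 and 2 and 14. The 1d cell of 16140 UMIs held 12 UMIs of Fras1, and without it the ratio of Fras1 was 5.68 (1.78 to 23.7). Tnfrsf19, a receptor of the TNF family, had 15 and 41, a ratio of 4.31 (2.34 to 8.38). Ackr3, a scavenger receptor for CXCL12, had 97 and 154, a ratio of 2.50 (1.93 to 3.26). Pdlim1, a cytoskeletal adaptor, had 161 UMIs in 46 of 54 and 226 in 28 of 30 cells, a ratio of 2.21 (1.8 to 2.73), and 2.07 in Lgals7-rich cells.

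Lower in 1d by the same rule were Adamts1, a secreted protease, with 426 and 105 UMIs and a ratio of 0.39 (0.31 to 0.48), and Exoc4, a subunit of the exocyst, with 92 and 14 and a ratio of 0.24 (0.13 to 0.42). Flrt3, an adhesion molecule, had 55 and 7, a ratio of 0.20 (0.08 to 0.44). Abcb1b, a drug efflux pump that p53 can regulate, had 48 and 7, a ratio of 0.23 (0.09 to 0.51). Esrra, a nuclear receptor of energy metabolism, had 31 and 2, a ratio of 0.10 (0.01 to 0.40). Tnfrsf12a, the receptor for TWEAK, was named only among Lgals7-rich cells, with 189 and 201 UMIs and a ratio of 2.06.

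RNA of other cell types was present in members, more in 1d for most of the lists, and lies beside every ratio above. Over the neutrophil, B cell, T cell, macrophage, erythroid, mesenchymal and endothelial lists, it took up a median of 0.0977% of the UMIs of a Lgals7-rich Ctrl cell (up to 4.53%) and 0.272% of a Lgals7-rich 1d cell (up to 18.7%). The erythroid list, 7 of 8 markers detected in 1d, summed to 334 CPM in Ctrl and 4340 in 1d members, chiefly in 1 cell with 1061 UMIs of Hbb-bs. The 12 neutrophil markers, 10 detected in each library, summed to 505 and 667 CPM, and the 10 B cell markers to 123 and 403. The T and NK cell markers summed to 28.4 and 19.7 CPM and the monocyte and macrophage markers to 40.9 and 32.2. Camp, a neutrophil granule gene also listed as an antimicrobial one, had 14 and 58 UMIs in members. The 12 mesenchymal markers, 11 detected in Ctrl and 8 in 1d, summed to 738 and 1948 CPM, and in Lgals7-rich cells to 604 and 2925 CPM. The part of this RNA in the ratios was not tested, apart from leaving out the cells that held most of it: the p53 median of Lgals7-rich cells was then -0.57 and the MHC median -1.67.

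Positions are on GRCm38 (mm10) with the gene models of GENCODE vM21. The type I keratins used here lie together on chromosome 11, with Krt15 at chr11:100131758-100135928, Krt14 at chr11:100203162-100207548, Krt16 at chr11:100246091-100248902 and Krt17 at chr11:100256217-100261029, all on the minus strand. The type II keratins Krt6b, Krt6a and Krt5 lie on chromosome 15, at chr15:101676023-101680287, chr15:101689910-101694307 and chr15:101707070-101712898. Cdkn1a spans chr17:29090976-29100727, Mdm2 chr10:117688875-117710758, B2m chr2:122147686-122153083, Slc6a6 chr6:91684053-91759066, Hells chr19:38930915-38971051 and Amelx chrX:169176114-169187200. Reads of the 3′ assay fall mainly at the last exon and 3′ UTR of these genes.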

How the data were processed

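The 3 libraries were deposited as raw UMI counts per gene and barcode, made with Cell Ranger 6.1.1 per the file headers; the submitters' processing notes also name CASAVA 1.8, Seurat and mm10. Barcodes were kept with at least 500 UMIs, 250 genes and at most 15% mitochondrial UMIs, leaving 20504 of 25102. Members and gene lists were chosen with earlier results of these data known. UMIs were summed over members per library and scaled to CPM. Ratios of 1d to Ctrl carry exact conditional binomial 95% intervals and shares Clopper-Pearson intervals, for counting error only. Genes with at least 20 UMIs over both libraries were described, 2-fold was the size used, and medians of log2 ratios used a pseudocount of 0.5 UMI. There was 1 library per group, hence no test. The fold of Shh over a Ctrl count of 0 used a floor of 3 UMIs, and other counts of 0 were kept as they were. Of 43 gene lists, 11 genes were not analysed here. Named genes were the 12 per direction whose interval lay farthest from 1 (detected in at least 20% of members, no cell holding over 25% of UMIs), up to 3 per direction and list, and the 20 top markers; others were named after their values were seen. A result covered by this rule is not reported here. The Lgals7 split, the set of Mcm2 to Mcm7 with Hells, and leaving out the cell richest in a gene were also chosen after seeing the data. Code was tested on simulated data. Tools were Python 3.11.15, numpy 2.4.6, pandas 2.3.3, scipy 1.17.1, scanpy 1.11.5 with its Scrublet, matplotlib 3.10.9 and, for TMM factors, edgeR 4.0.16 in R 4.3.3.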

Additional observations from a re-analysis of the deposited data

How the results depend on the processing

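Up to 16 alternative settings were run for each result. Over the 10 that apply to shares, the ratio of the 1d share to Ctrl ran from 0.652 to 1.20 and was above 1 in 3 (1.02 with no Ptprc UMI allowed, 1.20 without doublets, 1.08 over barcodes with at most 1 Ptprc UMI), and that of the 7d share stayed between 0.0304 and 0.135. The p53 median stayed between -0.79 and -0.43 in all 16. The count of genes at least 2-fold higher in 1d was 368 and became 611 with cells weighted equally, 67 with cells thinned to 2000 UMIs, 1133 with a gene floor of 5 UMIs and 122 with one of 50. That of genes at least 2-fold lower was 408 and became 227 without doublets, 85 thinned, 262 without the deepest member of each library, 1017 with the floor of 5 and 134 with that of 50. Thinning left few genes and gave medians of -0.16 for S phase, 0.049 for mitosis and -2.10 for MHC genes. The MHC median was also -0.27 with the rule on thinned barcodes, -0.47 without doublets and -0.38 without the deepest members. The basal median was 0.50 without doublets and -0.11 without members of mixed lineage, and the cytokine median, -0.10, was 0.37 without doublets and 0.41 in Lgals7-rich cells but -1.27 without members of mixed lineage, -1.20 thinned, -0.62 with the rule on thinned barcodes, -0.60 weighted equally and -0.56 with the floor of 5. The ratio of shares with simple keratins turned from 2.29 to 0.621 on thinning. Ratios crossed 1 for Ccng1 (1.60 thinned), Cxcl14 (0.75 without members of mixed lineage) and Sfn (0.93 weighted equally, 0.95 thinned). Except where fewer UMIs, cells or genes follow from the setting itself, the cause was not tested. No paired analysis was possible because each group is 1 library.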

Other observations

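Barcodes outside the members also held epithelial RNA, and more of it in Ctrl than in 1d. The outside Ctrl barcodes included 5 with at least 10 UMIs of the 6 choice genes but fewer than 3 genes detected. A further 5 failed only by more than 1 UMI of Ptprc, and 1d had 0 of either kind. Their part in the values below was not tested. Lgals7 stood at 11.1 CPM over all other kept Ctrl barcodes and at 0.419 CPM in 1d, and Krt6a at 3.32 and 0.116 CPM. For each of the 20 top marker genes of the members the level in other barcodes was higher in Ctrl than in 1d, while the levels in members differed less, as for Lgals7 with 2783 and 2181 CPM.

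Genes of the extracellular matrix gave further values in members. Mmp3, stromelysin 1, had 26 UMIs in Ctrl and none in 1d, 18 of the 26 in 1 cell, and Mmp13, collagenase 3, had 42 and 3, a ratio of 0.11 that was 0.19 without the Ctrl cell richest in it. Fbln1, fibulin 1, had 25 and 47 UMIs, a ratio of 2.96 (1.79 to 5.02). Of 25 described enamel organ genes 11 were at least 2-fold higher and 6 at least 2-fold lower in 1d, but of the 11 described in Lgals7-rich cells 1 was higher and 1 lower. The senescence list had a median of -0.76 over all members and of 0.39 in Lgals7-rich cells.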
